A study of Mus musculus with 24 samples.

Results

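The libraries described here are the 3 J2 pull-downs and the 3 input libraries of tumours treated with ORIN1001, 6 of the 24 libraries of the series. They were chosen by their labels, and each J2 library was set against the input of the tumour with the same replicate number. The tumours came from the mouse line 2153L, a p53-knockout, triple-negative mammary carcinoma. Its fragments were placed in cleared mammary fat pads of female BALB/c mice aged 6 to 8 weeks. Treatment began at a tumour volume near 100 mm3. ORIN1001, an inhibitor of the ribonuclease activity of IRE1α, was given by oral gavage at 150 mg/kg every day. The labels state that mice on a single drug also received vehicle as in the combination arm. The other groups, with 3 tumours each, were vehicle, docetaxel (10 mg/kg into the peritoneum weekly) and both drugs together. All groups share the same transplanted tumour line, so they model 1 carcinoma, and all libraries are from bulk tumour with host stroma and immune cells.

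J2 is a monoclonal antibody that binds the double helix of RNA with little regard to sequence. RNA that reaches it in a cell can come from inverted repeats within a transcript, from transcripts of both strands of a locus, and from mitochondria, whose circular genome is transcribed from both strands. IRE1α sits in the membrane of the endoplasmic reticulum and responds to misfolded proteins there. Its ribonuclease starts the splicing of Xbp1 mRNA and cleaves other transcripts, an activity called RIDD, and the study asks how that activity bears on double-stranded RNA.

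The gene table held 25.4 to 45.0 M (mega) counts in the ORIN1001 inputs and 14.1 to 17.4 M in their J2 libraries. Loci of cytosolic ribosomal RNA took 0.432 to 0.584% of input counts and 1.30 to 3.26% of J2 counts. The same share reached 67.1% in the input of docetaxel tumour 3 and 22.7 to 56.6% in the combination J2 libraries, and these libraries share the estimate of spread with the ORIN1001 tumours in the fit below. The counts of called genes and TE names without them are given below. Values without docetaxel tumour 3 are given for several genes that were called only then. Unless stated, a gene without a call is one not called in the fit over all 24 libraries. Levels are CPM, counts scaled to a fixed library total and by TMM, and a log2 fold change is J2 over input within tumours, positive where J2 was higher. Because both libraries are scaled to their totals, a gene can be higher in J2 only relative to the other genes of that library. In bulk tissue, fewer cells of a type and less RNA per cell cannot be told apart.

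In ORIN1001 tumours, J2 RNA differed from input RNA at 4867 of 17338 genes tested, with 2286 higher and 2581 lower at an adjusted p under 0.05 (edgeR quasi-likelihood test, n = 3 pairs). The higher genes were 13.2% and the lower genes 14.9% of those tested. Of the called genes, 4862 stood on the same side of input in all 3 tumours, which their calling from these same tumours favours. Over all genes tested, 4943 (28.5%) were above input and 6131 (35.4%) below it in all 3 tumours. A fold change of at least 4 was reached by 163 higher and 358 lower genes. The genes named below as the largest rises and falls are those at a mean of at least 2 on the log2 CPM scale, without unnamed gene models. They were chosen by their values in these libraries. The choice favours a lack of overlap between their J2 and input levels, which is given as a description. Small structured RNAs, messenger RNAs of the mitochondrial heavy strand, histones, ribosomal proteins and respiratory chain subunits were mostly lower. With library totals in place of TMM, the median of all genes moved from -0.06 to -0.31 and the split became 218 higher and 589 lower.

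**Figure D1:**
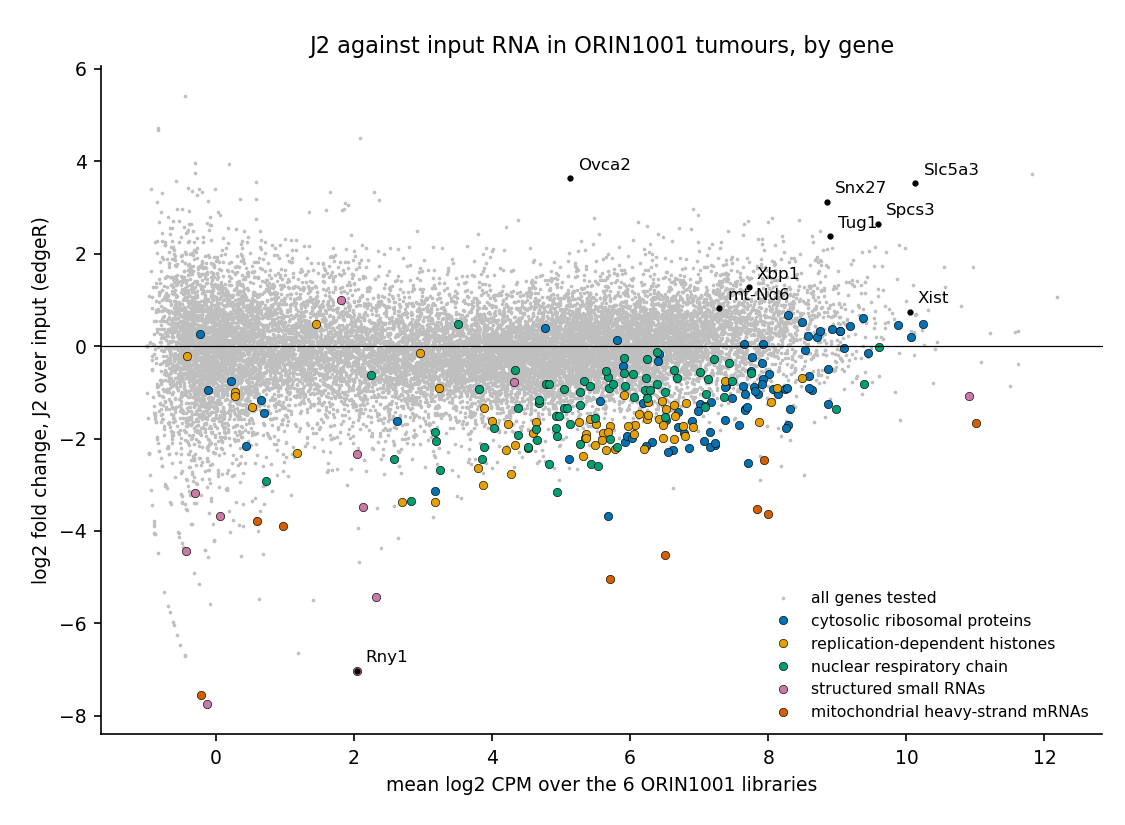
Log2 fold change of J2 over input (y axis, edgeR) against the mean log2 CPM over the 6 ORIN1001 libraries (x axis), 1 point per gene, with the members of 5 lists in colour. Members of the 5 coloured lists lie mostly below 0, and Slc5a3 (3.52) and Snx27 (3.13) stand high at high abundance.

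Slc5a3, which encodes a sodium-coupled myo-inositol transporter, had 273, 349 and 377 CPM in the inputs of tumours 1, 2 and 3. In the J2 libraries it had 3305, 4093 and 4012 CPM. Every J2 library was far above every input, an 11.5-fold difference (log2 fold change 3.52 ± 0.55 SE, adjusted p = 0.00078, edgeR). The gene lies on chromosome 16 at 92058322 to 92087473 of GRCm38.p6 (RefSeq), where its span overlaps Mrps6, a mitochondrial ribosomal protein gene. Mrps6 itself stood at -0.51 ± 0.27 and was not called, but was called lower without docetaxel tumour 3 (-0.44, adjusted p = 0.0195, edgeR).

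Snx27, a sorting nexin of the endosomal recycling route, rose from 147, 144 and 177 CPM in the inputs to 1460, 1161 and 1472 CPM in J2. The groups did not overlap, and the log2 fold change was 3.13 ± 0.44 SE (adjusted p = 0.00055, edgeR). Snx27 lies on chromosome 3 at 94497542 to 94582736. Ovca2, a serine hydrolase gene inside the locus of Dph1, had 8.90, 8.61 and 11.8 CPM in the inputs and 123, 98.9 and 142 CPM in J2. Its log2 fold change was 3.63 ± 0.90 SE (adjusted p = 0.00873, edgeR), against 1.03 for Dph1, an enzyme of diphthamide synthesis that was also called higher, though not without tumour 3. Where 2 genes overlap, the sources used here do not say how shared reads were counted.

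Spcs3, a subunit of the signal peptidase complex and the smallest of the 12 largest rises, had 272, 323 and 330 CPM in the inputs and 1309, 2814 and 1941 CPM in J2, with tumour 2 highest. The log2 fold change was 2.65 ± 0.43 SE (adjusted p = 0.000943, edgeR). Magt1, a magnesium transporter that is also part of the oligosaccharyltransferase, rose from 118 to 148 CPM in the inputs to 798 to 1029 CPM in J2. Pou2f1, which encodes the transcription factor Oct-1, had 88.3 to 116 CPM in input and 513, 1003 and 533 CPM in J2, again with tumour 2 highest.

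The other 6 of the 12 largest rises had log2 fold changes between 2.68 and 2.96. They were Wdr76, a WD-repeat protein (2.96), Zc3hav1l, a relative of the antiviral zinc finger protein ZAP (2.84), and Dtx3l, an E3 ubiquitin ligase (2.77). The list continued with Amd2, an S-adenosylmethionine decarboxylase gene (2.73), Rpa1, the large subunit of replication protein A (2.71), and Rel, the NF-κB subunit c-Rel (2.68). In each of them the lowest J2 library was above the highest input, which their choice as the largest rises favours. For Rel the inputs had 24.2 to 29.1 CPM against 142 to 230 CPM in J2. Parp9, which overlaps Dtx3l, stood at -0.37 and was not called. Smyd4, which overlaps Rpa1, stood at 0.67 and was not called, but was called higher without docetaxel tumour 3 (adjusted p = 0.00675, edgeR). Amd2 has a closely related copy in the genome, so its counts are uncertain. Rpa1 lost its call when any 1 tumour was left out (adjusted p = 0.11 to 0.128, edgeR), and Ovca2 without tumour 2 (adjusted p = 0.0546, edgeR).

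**Figure D2:**
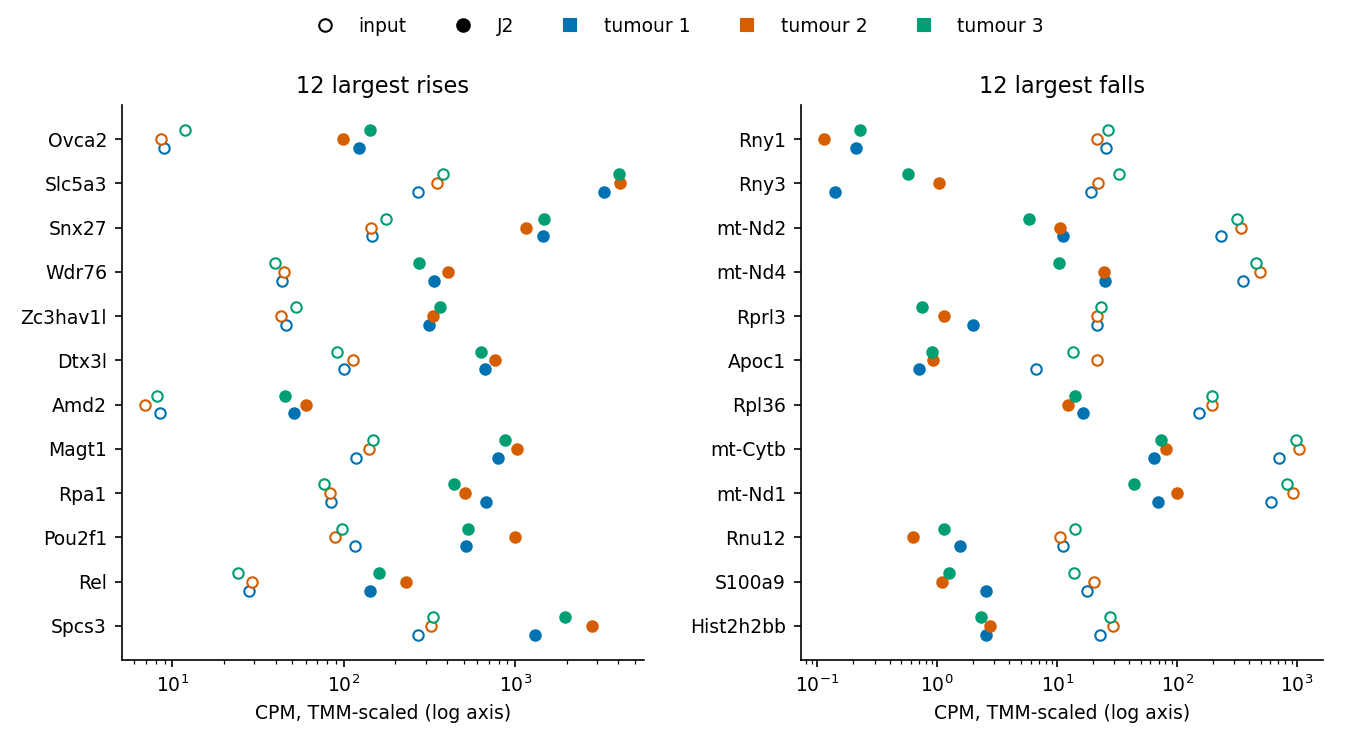
TMM-scaled CPM (x axes, log scale) of the 12 largest rises (left) and 12 largest falls (right) in the inputs (open circles) and J2 libraries (filled circles) of the 3 ORIN1001 tumours, by colour. For each of the 24 genes, chosen for large changes in these same libraries, no J2 library overlaps an input. The distance is widest for Rny1.

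The largest fall was that of Rny1, a Y RNA, one of the short noncoding RNAs bound by the Ro protein. It had 25.6, 21.6 and 26.3 CPM in the inputs and 0.211, 0.114 and 0.228 CPM in J2. The log2 fold change was -7.03 ± 0.53 SE (adjusted p = 2.04e-05, edgeR), which is 130.3-fold lower. Rny3, the Y RNA gene beside it on chromosome 6, had 19.2 to 32.6 CPM in the inputs and 0.141, 1.03 and 0.569 CPM in J2 (log2 fold change -5.43 ± 0.57 SE, adjusted p = 0.000173, edgeR).

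Other short noncoding RNAs with stable folds went the same way. Of 14 such genes listed, 11 were tested, 9 were lower (81.8%, against 14.9% of all genes) and 1 was higher. The median of the fitted log2 fold changes was -3.47, against -0.06 over all genes. The tumour medians, with 0.5 CPM added to each value, were closer to zero, at -1.44, -1.82 and -1.47. The lower ones included Rnu11 (-3.68) and Rnu12 (-3.47), small nuclear RNAs of the minor spliceosome, and Rpph1 (-4.43), the RNA of ribonuclease P. Rn7s1 (-3.19 ± 0.91) and Rn7s2 (-7.74 ± 1.62), RNAs of the signal recognition particle, and Rn7sk (-1.08), which restrains transcription elongation, were lower too. The size of some of these falls is uncertain. With 1 tumour left out, Rn7s1 ran from -6.54 to -2.60 and Rpph1 from -6.57 to -3.71, while Rn7s2 stayed between -7.88 and -7.57. Rprl3, annotated as another ribonuclease P RNA and not on that list, fell from 21.6 to 23.1 CPM in the inputs to 0.739 to 1.97 CPM in J2. Rnu2-10, a U2 small nuclear RNA gene, was the 1 that was higher (0.998). Terc, the telomerase RNA, stood at -0.77 (adjusted p = 0.42, edgeR), but was called lower without docetaxel tumour 3 (adjusted p = 0.0231, edgeR). The calls of Rpph1 and Rn7sk were lost without tumour 2 or 3, that of Rn7s1 without tumour 1 or 3, and that of Rnu2-10 when any 1 tumour was left out.

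Small nucleolar RNAs, which guide modification of ribosomal RNA, were less uniform. Of 34 tested, 5 were lower (14.7%, near the 14.9% of all genes) and 1 was higher, with a fitted median of -0.59. The tumour medians, with 0.5 CPM added to each value, were -0.24, -0.06 and -0.37. Snord13 had 1.51, 1.96 and 1.79 CPM in the inputs and 0.211, 0.0572 and 0.114 CPM in J2 (log2 fold change -3.77). The other lower ones were Snora78 (-3.28), Scarna17 (-3.07), Snora31 (-1.74) and Snora17 (-0.97). Snora30 moved the opposite way, from 1.01, 1.34 and 0.835 CPM in the inputs to 9.93, 7.15 and 9.38 CPM in J2 (log2 fold change 3.06 ± 0.46 SE, adjusted p = 0.000726, edgeR). Its host gene Srcap, a chromatin remodeller in whose span it lies, stood at 0.78 ± 0.44. Host genes of small nucleolar RNAs of the Snhg class were lower in 7 of 14 (50.0%, against 14.9% of all genes) and higher in 0. The lower ones included Snhg6 (-1.60), Gas5 (-1.56), Snhg3 (-1.98) and Snhg15 (-1.38). Snhg3 and Snora17 lost their calls when any 1 tumour was left out, Gas5, Snora31 and Snora78 without tumour 2 or 3, and Snhg15 without tumour 2.

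Mitochondrial RNA made up 0.834 to 1.10% of gene counts in the inputs and 0.152 to 0.235% in J2. Almost all mitochondrial proteins, both ribosomal RNAs and most transfer RNAs are made from the heavy-strand transcript. The light-strand transcript carries mt-Nd6 and a few transfer RNAs, and most of it is antisense to heavy-strand genes. Of 9 heavy-strand messenger RNAs tested, 7 fell (77.8%, against 14.9% of all genes) and 0 rose, with a median of -3.79. That median is the value of mt-Co2, which had 1 to 6 counts in each J2 library. The tumour medians, with 0.5 CPM added to each value, were -2.31, -2.37 and -3.54. The single light-strand messenger RNA, mt-Nd6, did not fall.

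mt-Nd2, a subunit of respiratory complex I, had 232, 340 and 313 CPM in the inputs and 11.3, 10.6 and 5.80 CPM in J2 (log2 fold change -5.03 ± 0.89 SE, adjusted p = 0.00145, edgeR). mt-Nd4, of the same complex, had 352, 490 and 459 CPM against 25.1, 24.5 and 10.4 CPM (-4.52 ± 0.85). mt-Cytb, of complex III, had 703, 1044 and 982 CPM against 64.8, 80.1 and 73.1 CPM (-3.63 ± 0.75). In all of these every J2 library lay below the lowest input. mt-Nd1 (-3.54) fell too, as did mt-Co2 (-3.79) and mt-Co3 (-3.90), which had only 93 to 217 counts in each input. mt-Atp6 had 39, 47 and 33 counts in the inputs and 0 in every J2 library, at least 16.8-fold lower against a floor of 3 counts over the 3 libraries together. mt-Co1, the most abundant, had 3078, 4002 and 3986 CPM in the inputs and 1148, 1382 and 984 CPM in J2, but was not called (-1.66 ± 0.79, adjusted p = 0.133, edgeR). mt-Nd5 was not called either (-2.46 ± 1.01, adjusted p = 0.082, edgeR). Without docetaxel tumour 3, mt-Co1 and mt-Nd5 were called lower (adjusted p = 0.0106 and 0.0127, edgeR). The low counts of mt-Co2, mt-Co3 and mt-Atp6 stand beside 122756 to 167105 counts of mt-Co1 in each input. How reads matching several places were counted is not given in the sources used here, and its part in these counts was not tested.

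mt-Nd6 had 114, 123 and 117 CPM in the inputs and 274, 344 and 93.0 CPM in J2. It was above input in tumours 1 and 2 and below it in tumour 3, and was not called (0.82 ± 1.00, adjusted p = 0.578, edgeR). Among 9 transfer RNA genes tested, mt-Ti (-3.88), mt-Tm (-3.61) and mt-Tt (-3.41) of the heavy strand fell. mt-Ty of the light strand rose from 0.332, 0.228 and 0.123 CPM in the inputs to 3.45, 2.34 and 2.22 CPM in J2 (3.55 ± 1.21, adjusted p = 0.0396, edgeR). mt-Tq, also of the light strand, had 1.66, 0.880 and 1.96 CPM against 20.3, 13.2 and 8.36 CPM, with no overlap, but was not called (3.17 ± 1.29, adjusted p = 0.0787, edgeR). Without docetaxel tumour 3, mt-Tq was called higher (adjusted p = 2.5e-05, edgeR). The other 13 of 22 transfer RNA genes did not pass the filter on low counts. Those that passed were scarce on 1 side, with 5 to 18 counts of mt-Ty in each input and 0 to 5 counts of mt-Ti, mt-Tm and mt-Tt in each J2 library, so their ranges are a description.

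**Figure D3:**
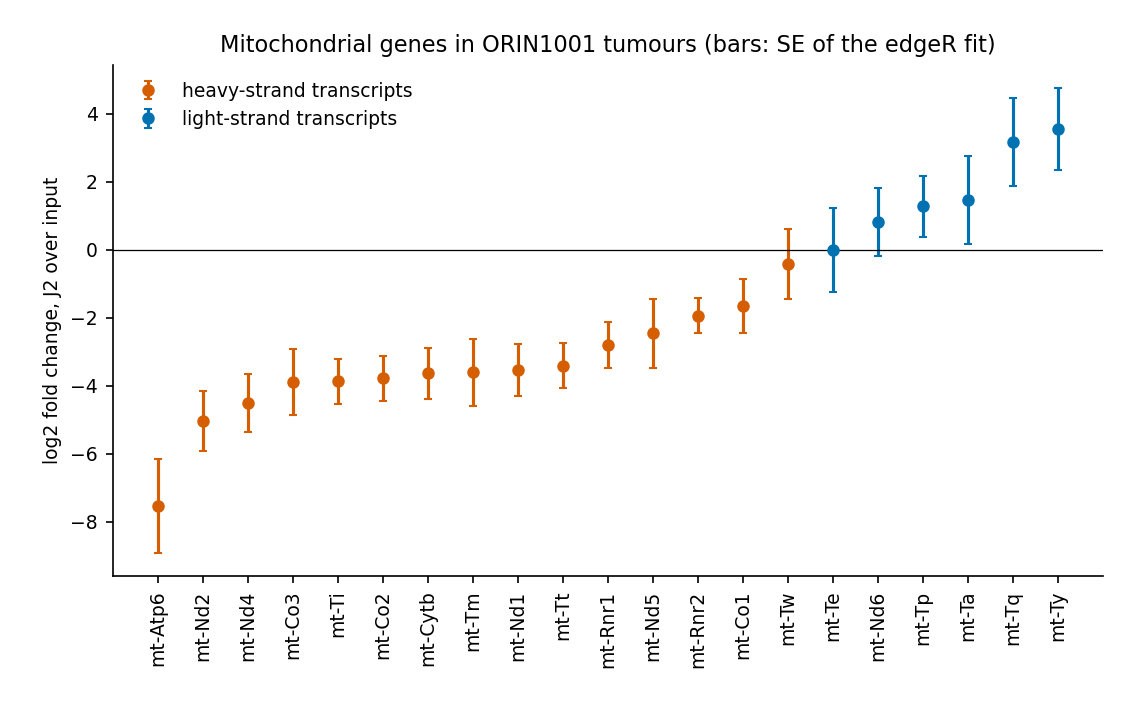
Log2 fold change of J2 over input (y axis, with the SE of the edgeR fit) for the 21 mitochondrial genes tested (x axis), coloured by the strand whose transcript carries them. The 15 heavy-strand genes all lie below 0, and the 6 light-strand genes run from -0.01 to 3.55.

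The grouping of transfer RNAs by strand was made after values had been seen. The strand setting of the counting is not given in the sources used here, and without it a gene and its antisense transcript cannot be told apart. The calls of mt-Ty and mt-Tm were lost when any 1 ORIN1001 tumour was left out, and the call of mt-Ty also when any 1 vehicle tumour was. Both ribosomal RNAs, mt-Rnr1 (-2.80) and mt-Rnr2 (-1.94), fell, and their calls were lost without tumour 2 or 3, as that of mt-Co3 was without tumour 3. The heavy-strand messenger RNAs had medians of -3.37 in vehicle, -4.32 in docetaxel and 0.68 in combination tumours, and mt-Nd6 had 1.45, -2.16 and 4.23.

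Replication-dependent histone genes have short messenger RNAs that end in a stem-loop instead of a poly(A) tail. Of 61 tested, 53 fell (86.9%, against 14.9% of all genes) and 0 rose. The median was -1.70, with tumour medians of -1.47, -1.99 and -1.56. Hist2h2bb had 22.7, 29.0 and 27.7 CPM in the inputs and 2.54, 2.75 and 2.33 CPM in J2 (-3.38 ± 0.49 SE, adjusted p = 0.000605, edgeR). Hist1h2ai (-2.76), Hist2h3b (-2.22), Hist1h4i (-1.89) and Hist1h4d (-1.75) fell as well. Histone genes have many near-identical copies, so the counts of single genes are uncertain.

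Cytosolic ribosomal proteins, whose messenger RNAs are short and abundant, fell in 53 of 88 (60.2%, against 14.9% of all genes) and rose in 1. Their median was -1.002, with tumour medians of -0.76, -1.22 and -0.90. Rpl36 had 154, 194 and 197 CPM in the inputs and 16.3, 12.4 and 14.1 CPM in J2 (-3.67 ± 0.56 SE, adjusted p = 0.00077, edgeR). Rpl32 went from 433 to 539 CPM in the inputs to 86.6 to 87.9 CPM in J2. Rpl39 (-2.28), Rpl37 (-2.24) and Rpl14 (-2.14) were alike in size, while Rpl10a was the 1 that rose (0.66). Rpl10a lost its call without tumour 1 or 3. Ribosomal protein genes have many processed pseudogenes, which can share reads with them.

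The subunits of the respiratory chain that are coded in the nucleus fell in 56 of 75 (74.7%) and rose in 0, with a median of -1.09. Over all genes 14.9% were lower. Uqcrb, of complex III, had 56.9, 73.8 and 70.6 CPM in the inputs and 10.7, 13.3 and 10.3 CPM in J2 (-2.55 ± 0.24 SE, adjusted p = 7.67e-05, edgeR). Cox7b, of complex IV, fell by 2.54 on the log2 scale, Ndufc1, of complex I, by 2.17 and Ndufs5 by 2.06. Proteins that process or degrade mitochondrial RNA fell in 6 of 13 (46.2%) and rose in 0. These included Slirp (-2.41), which binds and stabilises mitochondrial messenger RNA, and Pnpt1 (-0.95), the polynucleotide phosphorylase that degrades it. Hsd17b10 (-1.18), a subunit of mitochondrial ribonuclease P, and Rexo2 (-1.14), an oligoribonuclease, were also among them. Rexo2 lost its call without tumour 2 or 3 and Pnpt1 without tumour 1 or 3.

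**Figure D4:**
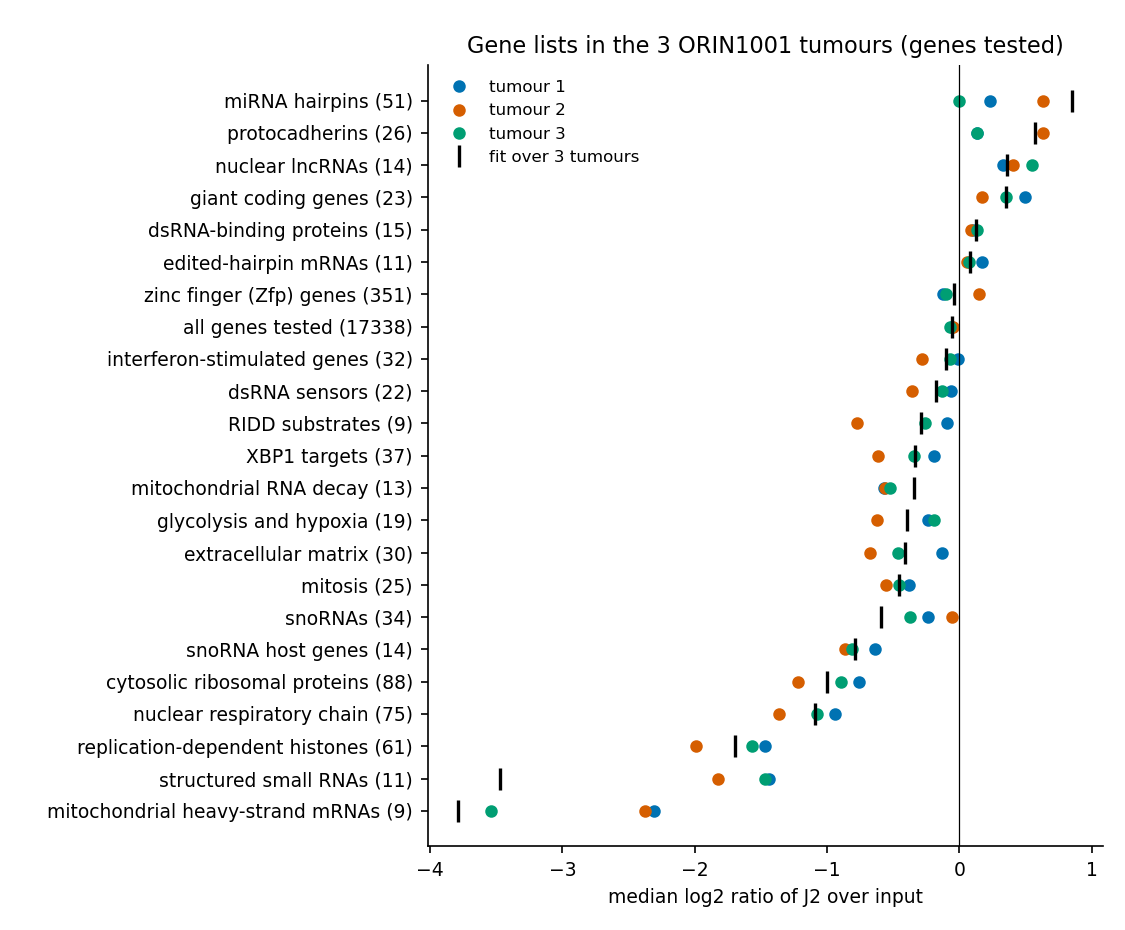
Median log2 ratio of J2 over input (x axis) for 22 gene lists and for all genes tested (y axis, number tested in brackets). Circles are the 3 ORIN1001 tumours, with 0.5 CPM added to each value, and bars the median of the fitted log2 fold changes, which are farther from 0 for lists of scarce genes. In the lists from mitochondrial heavy-strand mRNAs to snoRNA host genes all 3 tumours lie below -0.6.

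Across genes, the J2 ratio differed with the genomic span of the gene, as a description of these libraries. Protein-coding genes were split into 5 equal groups by their span in RefSeq. In the shortest group (0.374 to 8.30 kb) 30.4% were lower and 5.35% higher, with a median of -0.46. In the longest group (70.7 to 2390 kb) 6.66% were lower and 22.1% higher, with a median of 0.17. The groups between had medians of -0.18, -0.06 and 0.08, and the order was the same within each of the 3 tumours. Very large coding genes, from a list by name, were higher in 4 of 23 (17.4%, against 13.2% of all genes) and lower in 0. Among the higher ones were Huwe1 (0.71) and Herc1 and Herc2 (0.63 and 0.64), which encode giant ubiquitin ligases. Huwe1 and Herc1 lost their calls when any 1 tumour was left out, and Herc2 without tumour 1 or 3. The length of the mature RNA is not in the tables used here, and its part in these differences was not tested.

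In the fit over all libraries, long noncoding RNAs of the nucleus were called in 1 of 14 (7.14%), higher, against 13.2% of all genes. Of the 14, 0 were lower. That 1 was Tug1, a nuclear RNA that binds chromatin regulators, with 206, 203 and 216 CPM in the inputs and 795, 1281 and 1251 CPM in J2. Its log2 fold change was 2.38 ± 0.39 SE (adjusted p = 0.000978, edgeR), and the groups did not overlap. Xist, the RNA that silences the X chromosome, had 701 to 928 CPM in the inputs and 1223 to 1613 CPM in J2, without a call (0.75 ± 0.30, adjusted p = 0.0721, edgeR). Its span overlaps that of its antisense transcript Tsix. Jpx (1.08) and Airn (0.93) were not called. Without docetaxel tumour 3, Xist, Jpx and Airn were called higher (adjusted p = 0.0229, 0.000387 and 0.000618, edgeR). In that fit 3668 of all 17890 genes were higher. Malat1, an abundant RNA of nuclear speckles, stood at -0.40 and Neat1, the RNA of paraspeckles, at -0.23, both without a call.

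MicroRNA precursors are hairpins and so are short double helices by themselves. The count table has 957 precursor genes with a RefSeq hairpin, and 51 passed the filter on low counts. Of these, 11 were higher (21.6%, against 13.2% of all genes) and 1, Mir141, was lower. A gene of this size can pass the filter by its J2 counts alone, and 4 of the 11 had under 10 counts in every input, so the number is a description and no evidence about hairpins at large. All 11 lie within the span of a protein-coding gene, as do 41 of the 51 tested. Each had a larger ratio than its host, which their choice as higher genes favours. The precursors named by the rule, with the strongest of the rest and the 1 that was lower, are given here 5′ to 3′ from RefSeq (GRCm38.p6), with the seeds of the mature RNAs in capitals.
Mir8091: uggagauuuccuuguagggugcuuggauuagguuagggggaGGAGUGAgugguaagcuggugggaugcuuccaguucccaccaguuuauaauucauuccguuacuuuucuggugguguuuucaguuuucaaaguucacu
Mir1898: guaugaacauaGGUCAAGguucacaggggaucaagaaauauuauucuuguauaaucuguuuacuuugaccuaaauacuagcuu
Mir7664: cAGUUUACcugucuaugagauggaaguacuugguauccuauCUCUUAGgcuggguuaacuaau
Mir7660: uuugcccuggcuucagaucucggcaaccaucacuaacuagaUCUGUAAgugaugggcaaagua
Mir5622: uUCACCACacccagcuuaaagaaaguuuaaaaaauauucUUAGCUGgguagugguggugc
Mir141: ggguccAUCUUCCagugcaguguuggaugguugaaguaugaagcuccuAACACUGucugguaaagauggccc

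Mir8091, in the span of Lcor on chromosome 19 (41588651 to 41588789, plus strand), was the best counted of them. It had 4.51, 3.42 and 3.90 CPM in the inputs and 10.1, 11.1 and 10.7 CPM in J2, with no overlap. The log2 fold change was 1.43 ± 0.27 SE (adjusted p = 0.00213, edgeR), against 0.68 ± 0.28 for Lcor, a corepressor of nuclear receptors. Its 139 bases fold into 51 base pairs by RNAfold at its default settings. Mir1898, in the span of Zfr on chromosome 15, had 0.460, 0.293 and 0.221 CPM in the inputs and 2.18, 3.09 and 0.398 CPM in J2, where tumour 3 was near its input. Zfr, which encodes a binding protein for double-stranded RNA, stood at -0.40 with no call.

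Mir5622 had 7, 4 and 2 counts in the inputs and 10, 49 and 10 in J2 (3.41 ± 1.03), and its host Tpx2, a spindle assembly factor, stood at -0.19. Mir7664 (3.40) in Nsmf and Mir7660 (2.34) in Cand2 had 7 to 16 counts in each J2 library and 1 to 11 in each input. Mir141, of the family that keeps epithelial identity, lies in no protein-coding gene, and had 21, 20 and 21 counts in the inputs and 1, 2 and 0 in J2 (-3.02 ± 0.80). Reads of the host transcript over a precursor may be counted for it. By RNAfold, the higher and the uncalled precursors both had a median of 31 base pairs. Mir141 and Mir5622 lost their calls without any 1 tumour, Mir7660 without tumour 1 or 2 and Mir1898 without tumour 2.

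Of 11 genes of the unfolded protein response and its sensors, 4 were higher (36.4%) and 2 were lower (18.2%) in J2. Over all genes the shares were 13.2 and 14.9%. Xbp1, the target that IRE1α splices, had 119, 150 and 137 CPM in the inputs and 265, 346 and 381 CPM in J2. Every J2 library was above every input (1.28 ± 0.35 SE, adjusted p = 0.0142, edgeR). Ern1, which encodes IRE1α, had 40.9, 40.6 and 45.6 CPM in the inputs and 57.1, 52.8 and 65.4 CPM in J2 (0.46 ± 0.15 SE, adjusted p = 0.0325, edgeR). Atf6 (1.06), the membrane-bound sensor of a parallel branch, and Creb3l2 (0.92), a related transcription factor, were higher. Ddit3 (-1.31), the stress factor CHOP, and Creb3l1 (-1.31) were lower. Counts per gene do not separate spliced from unspliced Xbp1, and the calls of Xbp1 and Ern1 were lost when any 1 tumour was left out (adjusted p = 0.0534 to 0.0873 and 0.0783 to 0.138, edgeR). Creb3l1 lost its call without tumour 2 or 3. With library totals in place of TMM none of the genes named here was called (adjusted p = 0.0539 to 0.821, edgeR). Without the tumour block Ern1 and Creb3l1 were not called (adjusted p = 0.119 and 0.0764, edgeR).

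Of 37 genes listed as induced by XBP1, 4 were higher (10.8%) and 13 were lower (35.1%), with a median of -0.34. They serve protein import, folding and degradation in the endoplasmic reticulum. Sec61g (-2.55) of the translocon, Ssr4 (-1.97) of the translocon-associated complex, Sdf2l1 (-1.68) and the chaperone Hspa5 (-1.62) were among the lower ones. The 4 higher ones were Spcs3, described above, Edem1 (1.05) and Sel1l (0.56), which serve degradation of misfolded proteins, and Dnajc10 (0.73), a reductase of the same route. Of 9 reported RIDD substrates tested, 2 were higher (22.2%) and 3 lower (33.3%), against 13.2 and 14.9% of all genes. Pmp22, a membrane protein, had 16.8, 26.6 and 29.9 CPM in the inputs and 6.41, 7.89 and 11.5 CPM in J2 (-1.50). Col6a1 (-1.45), a collagen chain, and Sparc (-0.67), a matrix glycoprotein, were also lower. Tapbp, a chaperone of antigen presentation, had 196, 253 and 207 CPM in the inputs and 443, 508 and 347 CPM in J2 (0.97), and Galnt10 (0.69), a glycosyltransferase, was higher too. Sel1l lost its call without any 1 tumour, Galnt10 without tumour 1 or 3, Sparc without tumour 2 or 3, and Dnajc10 and Hspa5 without tumour 2. With library totals Hspa5, Edem1, Sel1l, Dnajc10, Sparc, Tapbp and Galnt10 were not called (adjusted p = 0.0535 to 0.694, edgeR).

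Sensors of double-stranded RNA were represented by 22 genes, of which 2 were higher (9.09%) and 7 lower (31.8%). Trim25, the ubiquitin ligase that activates RIG-I signalling, had 230, 229 and 268 CPM in the inputs and 724, 671 and 799 CPM in J2 (1.59 ± 0.31 SE, adjusted p = 0.00248, edgeR). Irf7 (0.69), a factor of the signalling and not a sensor, was the other. Zbp1 (-1.18), which senses left-handed helices, Eif2ak2 (-0.81), the kinase PKR, and Tlr3 (-0.75), the endosomal receptor, were lower. Of 15 binding proteins of double-stranded RNA, 3 were higher and 2 lower. Cdkn2aip had 84.9, 83.4 and 94.0 CPM in the inputs and 212, 278 and 302 CPM in J2 (1.58 ± 0.21 SE, adjusted p = 0.000429, edgeR). Strbp (1.06) and Adarb1 (0.998), the editing enzyme ADAR2, were higher as well. Ilf2 (-1.003) and Stau1 (-0.82), the transport protein Staufen, were lower. Irf7 and Tlr3 lost their calls without tumour 1 or 3, and Strbp without tumour 2. With library totals in place of TMM none of the genes named in this paragraph was called (adjusted p = 0.0519 to 0.557, edgeR). Without the tumour block Irf7, Tlr3, Strbp and Zbp1 were not called (adjusted p = 0.0572 to 0.37, edgeR).

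Messenger RNAs with hairpins known to be edited from adenosine to inosine hold double helices, and 1 of 11 tested was higher and 1 lower. Each was 9.09% of those tested, against 13.2% higher and 14.9% lower over all genes. Azin1, an antizyme inhibitor, had 179, 183 and 161 CPM in the inputs and 282, 553 and 258 CPM in J2 (0.97 ± 0.26 SE, adjusted p = 0.0135, edgeR). Without tumour 2, where it was highest, Azin1 lost its call (adjusted p = 0.146, edgeR). Igfbp7 (-1.29), a secreted binding protein, was lower and lost its call without tumour 2 or 3. Zinc finger genes of the Zfp series, many of which bind transposable elements, were higher in 56 of 351 (16.0%) and lower in 37 (10.5%), near the shares over all genes. Zfp398 (2.55), Zfp346 (1.48), itself a binding protein of double-stranded RNA, and Zfp865 (1.36) were among the higher ones. Of 26 protocadherins, adhesion proteins coded in tandem clusters that share exons, 15.4% were higher, near the 13.2% of all genes. Pcdhgc4 (2.19), Pcdhgb7 (1.67), Pcdhga11 (1.58) and Pcdhgc5 (0.996) were higher, and Pcdhgc3 (-0.92) was lower. Pcdhga11 lost its call without tumour 1 or 3, and Pcdhgc3 and Pcdhgc5 when any 1 tumour was left out.

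Interferon-stimulated genes were higher in 1 of 32 (Dtx3l, 3.12%) and lower in 7 (21.9%), against 13.2 and 14.9% of all genes. Rtp4, an interferon-induced chaperone, had 39.7, 43.7 and 42.4 CPM in the inputs and 10.4, 11.5 and 14.0 CPM in J2 (-1.82 ± 0.24 SE, adjusted p = 0.000407, edgeR). Isg20 (-1.49), an exonuclease, Psmb8 (-1.22) of the immunoproteasome and the chemokine Cxcl9 (-1.20) were lower. Genes of mitosis were lower in 7 of 25 (28.0%) and of glycolysis and hypoxia in 8 of 19 (42.1%), with 0 higher in either. Extracellular matrix genes were lower in 9 of 30 (30.0%) and higher in 1. Of 16 translation factors 2 were higher (12.5%, near the 13.2% of all genes), Eif4g2 (1.29) and Pabpc1 (0.86), and 4 lower (25.0%). Eif4g2 lost its call without tumour 2 and Pabpc1 without tumour 1 or 3. Trp53 had 37.9 to 46.0 CPM in the inputs and 11.5 to 17.5 CPM in J2 (-1.45). The labels do not say which exons the knockout removes, so these counts over the whole gene check nothing.

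Markers of the cell types that such a tumour can hold were counted too. In the inputs, 14 luminal epithelial markers summed to 2406 to 2466 CPM and 10 basal ones to 253 to 541 CPM. Fibroblast markers summed to 311 to 1018 CPM, macrophage markers to 440 to 1150 CPM, and T cell markers to 11.6 to 22.2 CPM. Over 13 such lists, 112 of 132 markers were tested, and J2 was higher for 4 and lower for 35. Over all genes 13.2% were higher and 14.9% lower. No list had a summed level of 0 in any library, and the part of cell types in the J2 differences was not tested. Epithelial markers were among the lower ones, with Epcam at 572, 733 and 826 CPM in the inputs and 354, 254 and 362 CPM in J2 (-1.14). Elf5, a luminal transcription factor (1.17), Esr1 (1.54), Vwf, an endothelial clotting protein (1.23), and Col1a1, a fibroblast collagen (0.96), were the 4 that were higher. In the same lists 6 luminal, 3 endothelial and 3 fibroblast markers were lower, among them Cdh5, an endothelial cadherin (-1.77). Neutrophil S100a9 fell from 13.9 to 20.5 CPM to 1.09 to 2.54 CPM (-3.47), and Apoc1, an apolipoprotein of macrophages and liver, from 6.70 to 21.4 CPM to 0.704 to 0.915 CPM (-3.94). Col1a1 and Esr1 lost their calls when any 1 ORIN1001 or vehicle tumour was left out, Vwf without tumour 1 or 3, and Epcam without tumour 2.

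Transposable elements (TEs) are repeats whose copies often lie in opposite orientation within 1 transcript. Reads in them were deposited as counts per TE name. They made up 15.3, 12.3 and 11.8% of all gene and TE counts in the inputs and 14.4, 19.1 and 12.0% in J2, a larger share in J2 in tumour 2, a smaller one in tumour 1 and nearly the same in tumour 3. In the fit over all 24 libraries, 0 of 1046 TE names were called (0%), 29 at an unadjusted p under 0.05, and DESeq2 called 2. The median log2 fold change over all names was 0.25, but -0.02 with library totals. It was -0.05 with TMM on the TE table alone. That scaling places the typical TE name near 0, so it cannot test the 0.25. The tumour medians were -0.17, 0.85 and 0.04. In all 3 tumours, 342 names were above their input and 88 below it.

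This outcome depended on a tumour outside the ORIN1001 group. Without both libraries of docetaxel tumour 3, whose input is mostly ribosomal RNA, 227 of 1052 TE names were higher (21.6%) and 40 lower (3.8%) with edgeR. With the 6 ORIN1001 libraries alone, 181 were higher and 27 lower. The median over all names barely moved (0.28 without docetaxel tumour 3), while the errors shrank. The names below are given with their values per tumour.

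MMVL30-int, the body of a mouse retrotransposon related to murine leukaemia virus, had 884, 770 and 1012 CPM in the inputs and 4489, 2645 and 4023 CPM in J2. The ratios were 2.34, 1.78 and 1.99 on the log2 scale, and the groups did not overlap. Its log2 fold change was 2.04 ± 0.81 SE in the fit over all libraries (adjusted p = 1.0, edgeR) and 2.07 ± 0.21 SE without docetaxel tumour 3 (adjusted p = 7.39e-06, edgeR). RLTR45-int, another rodent LTR element, had 184, 185 and 183 CPM in the inputs and 836, 829 and 724 CPM in J2 (2.14 ± 0.20 SE without docetaxel tumour 3). Of the MERVL group, MERVL-int had 251, 174 and 172 CPM in the inputs and 600.1, 612.5 and 390.5 CPM in J2, and its LTR, MT2_Mm, had 42.1 to 49.8 CPM against 107 to 177 CPM.

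IAPLTR2_Mm, an LTR of intracisternal A particles, had 15.2, 10.8 and 11.3 CPM in the inputs and 53.1, 55.7 and 35.5 CPM in J2 (1.97 ± 0.18 SE and called without docetaxel tumour 3). LTRIS4 had the smallest p over all libraries (2.13 ± 0.42 SE, adjusted p = 0.281, edgeR). IAPEz-int, the body of the A particles, had log2 ratios of 0.45, 0.38 and 0.40, and MMETn-int of -0.06, 1.59 and 0.38. RMER17B2 had 50.8, 57.3 and 58.8 CPM in the inputs and 14.3, 15.3 and 16.9 CPM in J2, and ERVB4_1B-LTR_MM had 13.1 to 19.9 CPM against 2.78 to 4.22 CPM. Both were lower in all 3 tumours and called lower without docetaxel tumour 3.

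SINEs, short elements that are frequent in introns and 3′ ends of messenger RNA, had their highest ratios in tumour 2. The 16 B1 names had medians of 0.19, 1.16 and 0.36 in tumours 1, 2 and 3, the 5 B2 and B3 names 0.44, 1.14 and 0.22, and the 14 B4, ID and MIR names 0.09, 1.07 and 0.35. B1_Mus1 had 3144, 2290 and 2319 CPM in the inputs and 3992, 5523 and 2905 CPM in J2 (0.64 ± 0.68). B2_Mm2 had 3840, 2975 and 2839 CPM in the inputs and 5210, 7005 and 3305 CPM in J2 (0.63 ± 0.57). Without docetaxel tumour 3, 9 of the 16 B1 names, 0 of the 5 B2 and B3 names and 4 of the 14 B4, ID and MIR names were called higher, and the difference between families was not tested. B1_Mus1 and B2_Mm2 then had like folds (0.67 and 0.66).

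The 6 young LINE-1 names (L1Md) had medians of 0.46, 0.74 and -0.18 in the 3 tumours, and the 149 older LINE names -0.47, 0.69 and -0.25. L1Md_F2 had 816, 632 and 578 CPM in the inputs and 1119, 1218 and 519 CPM in J2, with tumour 3 below its input. The 114 MERVL and MaLR names had the highest median of any family with the fit over all libraries (0.60), close to 0.58 for the B1 names. Of the 114, 75 were above input in all 3 tumours, against 342 of all 1046 TE names (32.7%). MMSAT4, the most counted satellite name, had 1501 to 1725 CPM in the inputs and 972 to 1353 CPM in J2 (-0.42 ± 0.75). The repeat name 7SK had 6343, 7358 and 7951 CPM in the inputs and 3649, 2887 and 3009 CPM in J2 (-1.18 ± 0.59), beside -1.08 for the gene Rn7sk. It was called lower without docetaxel tumour 3 (adjusted p = 0.00689, edgeR).

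**Figure D5:**
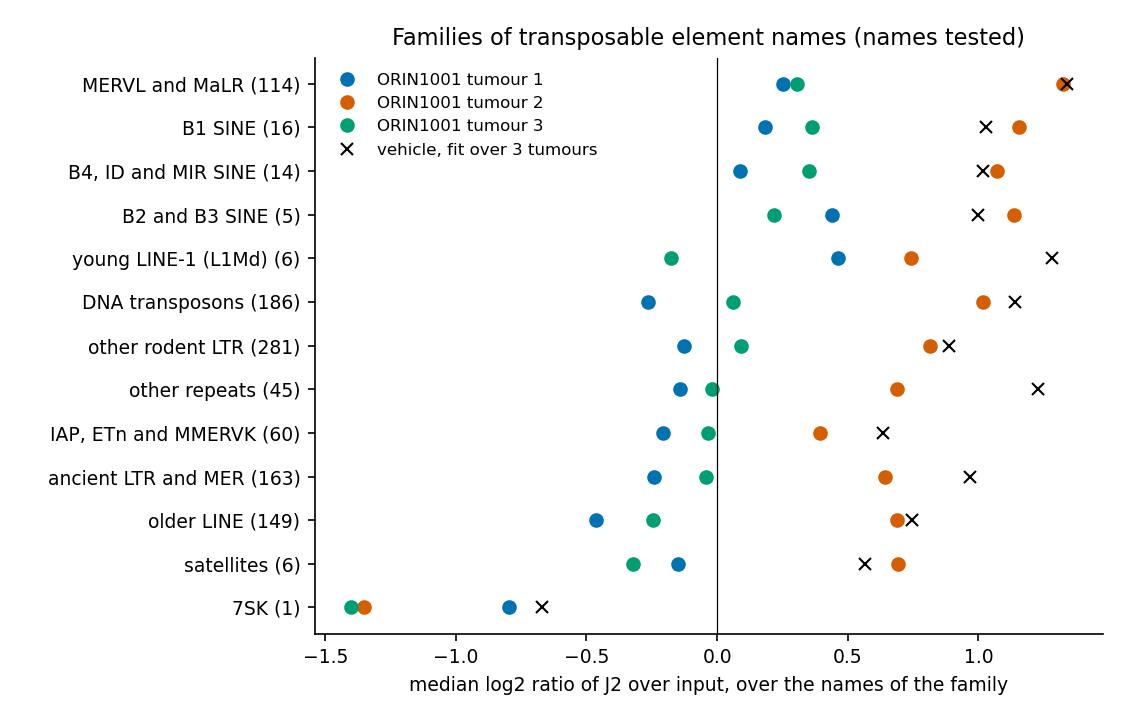
Median log2 ratio of J2 over input (x axis) over the names of each of 13 TE families (y axis, number of names tested in brackets). Circles are the 3 ORIN1001 tumours and crosses the fitted median of the vehicle tumours. Of the 3 tumours, tumour 2 is farthest right in 12 of the 13 families, all but 7SK.

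Tumour 2 also stood apart in genes, with lower medians for extracellular matrix genes (-0.68, against -0.13 and -0.46), RIDD substrates (-0.77, against -0.09 and -0.26) and ribosomal proteins. Its J2 library had the smallest share of ribosomal RNA (1.30%) and the largest TE share of the 3. Whether these shares bear on its TE ratios was not tested.

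To ask whether the J2 pattern belongs to ORIN1001, each gene's enrichment was compared with that of other treatments, each measured from its own J2 and input libraries. For genes, 0 of 17338 differed from vehicle (0%), with 605 at an unadjusted p under 0.05 in edgeR and 0 calls by DESeq2. With ORIN1001 and vehicle libraries only, 1913 of 16937 had an unadjusted p under 0.05 in edgeR and 0 were called. Without docetaxel tumour 3 and the combination tumours, 2011 of 17442 had such a p and 6 were called. In the fit over all libraries, 0 differed (0%) from the mean of vehicle, docetaxel and combination. There 903 had an unadjusted p under 0.05, and DESeq2 called 12. Of the genes higher in ORIN1001 J2, 2023 of 2286 (88.5%) were also called higher in vehicle tumours, and these were 57.6% of the 3510 called there. Of the lower genes, 2291 of 2581 (88.8%) were shared, or 62.6% of the 3662 in vehicle. In docetaxel tumours, where 2074 genes were called higher and 2072 lower, 50.5% of the higher and 57.8% of the lower ORIN1001 calls were also made, and 97.3 and 98.6% had the same sign. In combination tumours, with 2825 called higher and 3550 lower, the shares were 34.2 and 33.6%, and 65.4 and 76.8% had the same sign.

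The leading genes show this side by side. Slc5a3 was 3.52 in ORIN1001, 3.31 in vehicle, 2.24 in docetaxel and 0.69 in combination tumours on the log2 scale. Tug1 was 2.38, 2.45, 1.91 and 0.95 in the same order, and Rny1 -7.03, -6.68, -7.02 and -3.26. Xbp1 was 1.28 in ORIN1001 and 0.73 in vehicle, a difference of 0.55 ± 0.49 SE that was not called (adjusted p = 1.0, edgeR). Ern1 differed from vehicle by -0.05 ± 0.21.

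The 5 genes with the smallest p against vehicle were Adgre1, AI480526, Tuba1a, Ppnr and Rpl34, all with an adjusted p of 1.0 (edgeR). Adgre1, the macrophage marker F4/80, had 12.3, 28.1 and 31.1 CPM in the inputs and 18.3, 29.5 and 46.7 CPM in J2 (0.41 ± 0.20), against -0.83 ± 0.21 in vehicle. Rpl34, a ribosomal protein, was at 0.06 ± 0.17 in ORIN1001 and -0.88 ± 0.17 in vehicle tumours, and Tuba1a, an α-tubulin, at -0.28 and -1.24. AI480526 and Ppnr, a pair of transcripts without an assigned function here, were at -0.28 and -0.19 in ORIN1001 and at 1.02 and 1.34 in vehicle.

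Against the mean of the other 3 treatments, Arhgap11a, Gps2, Ranbp2, A230050P20Rik and Adgre1 had the smallest p, all with an adjusted p of 0.884 (edgeR). Arhgap11a, a GTPase-activating protein, had 89.5, 99.1 and 103 CPM in the inputs and 429, 110.5 and 466 CPM in J2. Tumour 2 was thus near its input while the other tumours were more than 4-fold above theirs. The log2 fold change was 1.56 in ORIN1001 and -0.09, 0.15 and -0.56 in vehicle, docetaxel and combination tumours. Ranbp2, a nuclear pore protein, was at 1.06 against 0.58, 0.47 and -0.64, and Gps2, a corepressor subunit, at -1.67 against -1.41, -1.35 and 1.18, where the combination tumours alone had the opposite sign.

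For TE names, 0 of 1046 differed from vehicle (0%), with 0 at an unadjusted p under 0.05 in edgeR and 0 calls by DESeq2. Against the mean of the other 3 treatments 0 differed (0%), with 19 at an unadjusted p under 0.05 and 0 calls by DESeq2. The medians over TE names were 0.25 in ORIN1001, 0.99 in vehicle, -0.22 in docetaxel and -1.13 in combination tumours. The median difference from vehicle was -0.67, and it was -0.43, -1.01 and -0.53 without ORIN1001 tumour 1, 2 and 3. In the fit of ORIN1001 and vehicle libraries alone, 2 names were lower than in vehicle and 458 had an unadjusted p under 0.05.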

How the data were processed

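RNA pulled down with the J2 antibody and input RNA were sequenced from 12 tumours, 3 for each of 4 treatments. Whole-number counts per gene and per TE name were deposited by the authors, and the submitters' processing notes name STAR 2.7.3a, featureCounts 2.0.3, fastp 0.23.2 and the mouse build mm10. For the strand setting and multimapping reads, nothing is given in the sources used here. A symbol was found for 53274 of 53465 gene rows, and 0 columns were left unused.

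Counts were filtered with filterByExpr (minimum 10, total 15), scaled by TMM and fitted with edgeR 4.0.16 (R 4.3.3, quasi-likelihood, two-sided) over all 24 libraries, with a block per tumour and 1 J2 coefficient per treatment, leaving 8 residual degrees of freedom. P-values were adjusted by Benjamini-Hochberg over all genes, or over all TE names fitted jointly with the genes, at 0.05. The procedure was tested on simulated counts. The same number marks the J2 and input library of a tumour. Their deviations correlated at 0.391, 0.214 and 0.626 in the ORIN1001 tumours, and each tumour correlated best with its own number. Log2 ratios per tumour use an offset of 0.5 CPM. P-values measure the spread between these samples, all from 1 transplanted line.

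Named genes are the 12 largest rises and 12 largest falls past the threshold with a mean log2 CPM of at least 2 and the same side in all 3 tumours, up to 4 members of each list by smallest p, Ern1, Xbp1 and Trp53, and the 5 smallest p of each difference between treatments. No TE name passed the threshold, so TE names other than the most counted of each family were chosen after their values were seen, as were the overlapping genes, hosts, and other list members and transfer RNAs named. The gene lists were chosen with earlier results of these data known. DESeq2 1.42.0, limma 3.58.1 (voom) and other scalings, filters and sets of libraries were tried as alternatives. Hairpins were folded with RNAfold 2.7.2. The values of 1 list member are not reported here.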

Additional observations from a re-analysis of the deposited data

How the results depend on the processing

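The count of genes that differed between J2 and input, 4867, lay between 4863 and 6639 with DESeq2, voom, DESeq2 size factors, no filter, either fit of the 6 libraries, or without mitochondrial or ribosomal RNA genes, and was 7175 without docetaxel tumour 3. It was 8341 with ORIN1001 and vehicle libraries only, 8431 without docetaxel tumour 3 and the combination tumours, 807 with library totals and 252 against a fold of 2. It was 2108 to 2928 without 1 ORIN1001 tumour and 4047 to 4199 without 1 vehicle tumour, where fewer samples were fitted. Without the tumour block that pairs the libraries it was 2759, and leaving out the block changed none of the 0 counts of TE names or of differences between treatments in the fit over all libraries.

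For TE names, 0 calls became 2 with DESeq2, 1 without the filter, 20 with TMM on the TE table alone and 347 with ORIN1001 and vehicle libraries only. They became 208 and 137 with the 6 ORIN1001 libraries with and without the block, 267 without docetaxel tumour 3 and 375 without the combination tumours as well. They stayed at 0 without any 1 ORIN1001 or vehicle tumour. Genes that differed from vehicle numbered 17 without the filter, 6 without docetaxel tumour 3 and the combination tumours, and 0 to 3 without 1 ORIN1001 tumour. TE names that differed from vehicle numbered 2 with ORIN1001 and vehicle libraries only and 6 without docetaxel tumour 3 and the combination tumours. Against the mean of the other 3 treatments, 12 genes were called by DESeq2, 29 without the filter and 0 to 2 without 1 ORIN1001 tumour, and 3 TE names without docetaxel tumour 3. The cause was not tested. The fits without the combination tumours, without a vehicle tumour and of the 6 libraries without the block were chosen after seeing the data, as were ORIN1001 and vehicle libraries alone and voom for the differences between treatments.

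Of 135 called genes examined singly, 80 kept their call when each ORIN1001 tumour was left out in turn, 18 lost it in all 3 of these fits, 91 lost it against a fold of 2, 63 with library totals and 39 without the block. With the 6 ORIN1001 libraries alone 7 lost it without the block and 0 with it, and none changed sign under any alternative run.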
